A study of Oryctolagus cuniculus with 3 samples.

Results

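Among the coding sequences measured in the back skin of Rex rabbits, 79 of 15558 were low in the skin of a white animal and alike in the skins of a black and a chinchilla littermate. They were picked by their RPKM values, the reads per kilobase of coding length, scaled to the library total. A member reached 1 RPKM in each coloured skin, was at least 0.7 lower in white than in each of them on the scale of log2(RPKM + 1), which is 1.62-fold where levels are high, and differed by less than 1 on that scale between black and chinchilla. The rule used the RPKM values of all 3 libraries, so the levels and differences of the members describe how they were chosen and were not tested.

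The animals were 3 full siblings born in the same nest, raised together for 42 days, until the first moult. Rex rabbits are a domestic breed kept for their short, velvety coat. The groups were black, white and chinchilla fur, with 1 animal and 1 RNA-seq library each. The labels give no genotype at a coat colour locus, and no treatment other than the anaesthesia under which the skin was taken. Without replicates, coat colour cannot be told apart from any other difference between the 3 animals, and no p-value is given. The black library held 16.2 M assigned reads (M for mega), the chinchilla library 15.0 M and the white library 14.8 M.

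Fur is pigmented by melanocytes, cells of the hair follicle that make melanin in organelles called melanosomes and pass it to the keratinocytes of the growing hair. Tyrosinase and its related enzymes make the pigment, the melanocortin 1 receptor and its antagonist agouti set whether it is dark eumelanin or yellow to red pheomelanin, and in rabbits chinchilla fur is classically assigned to an allele of the tyrosinase locus. Whole skin also holds keratinocytes, fibroblasts, sebaceous, muscle, fat, vascular and immune cells, so in these bulk samples fewer cells of a type and less RNA per cell cannot be told apart. The identifiers are Ensembl rabbit protein identifiers without gene symbols. Which members belong to the pigment pathway, and whether markers of pigment cells or of other cell types of skin differ between the libraries, was therefore not analysed here, and members are called by their coding length or identifier.

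The rule kept 0.673% of the 11743 coding sequences that reached 1 RPKM in each coloured skin. Of these 11743, 11.2% were at least 0.7 lower in white than in black, 4.52% were at least 0.7 lower in white than in chinchilla, 1.03% (121) were lower than both, and 90% had black and chinchilla less than 1 apart. The differences of black and of chinchilla to white share the white library. The mirrored rule, white at least 0.7 above both coloured skins, found 75 coding sequences, 0.631% of 11893 with at least 1 RPKM in white. At these settings, coding sequences low in white were about as many as those high in white, but the balance moved both ways with the settings. A pseudocount of 0.1 gave 203 low and 117 high, one of 5 gave 14 and 30, a floor of 5 RPKM gave 37 and 54, and white at least 1 from both gave 16 and 27. Scaling by the upper quartile of reads also put the high ones ahead, with 62 low and 86 high, as did median ratio (65 and 83) and TMM scaling (66 and 82), while removal of the trend with coding length gave 91 and 66.

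**Figure D1:**
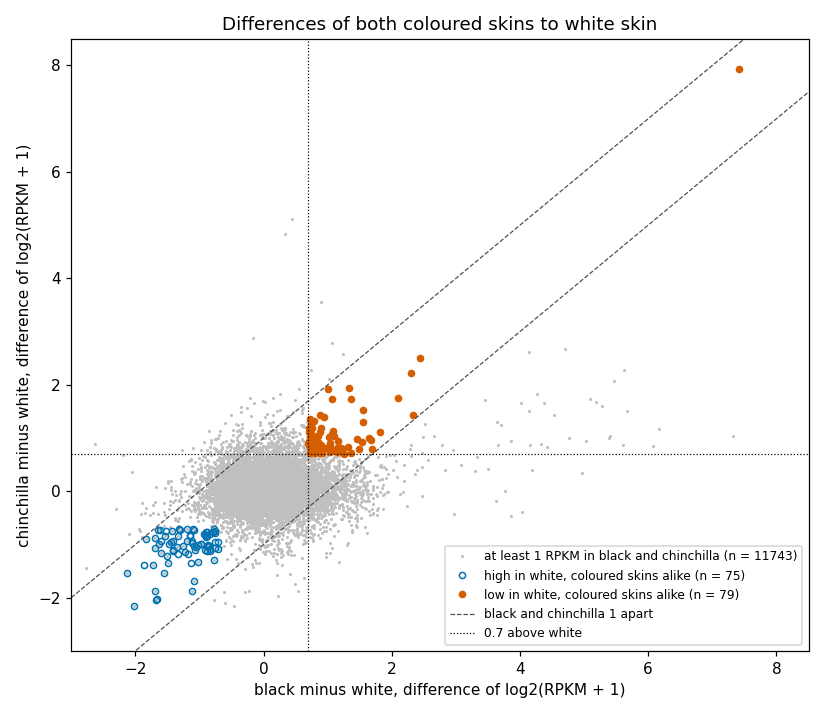
Difference of log2(RPKM + 1) between black and white skin (x axis) and between chinchilla and white skin (y axis), each point 1 coding sequence. The 79 coding sequences low in white lie above both dotted lines and between the dashed lines, most of them close to the corner at 0.7, and 1 stands apart at 7.42 and 7.93.

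Most members lay close to the limit of the rule. The smaller of a member's log2 differences to white was under 0.8 for 37 members and under 1 for 63, and it reached 1 for 16, 2 for 3 and 3 for 1 member. At least 1 below both coloured skins, with no condition on how alike these were, were 0.358% of the 11743. The median difference over the 79 members was 0.94 for black minus white and 0.92 for chinchilla minus white, where the medians over the 11743 were 0.02 and 0.05. The rule set a lower limit on both differences, so the contrast of these medians with those of the 11743 follows from the selection. The crowding of members near the limit follows in part from the same cut, and whether it says anything else was not tested. As a description only, many members had modest differences and a short list had larger ones.

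ENSOCUP00000003355, a coding sequence of 411 bases, had 2258 reads (338 RPKM) in black skin, 2973 reads (482 RPKM) in chinchilla skin and 6 reads (0.985 RPKM) in white skin. It was abundant under both coloured coats and nearly missing under the white coat. The RPKM ratio to white was 344 for black (exact 95% counting interval 158 to 937) and 489.8 for chinchilla (225 to 1336), and both log2 differences were the highest of all 11743 coding sequences. Chinchilla stood 0.51 above black (log2), with a ratio of black to chinchilla of 0.701 (0.664 to 0.741). Its reads touched 408 of the 411 bases in black and 401 in chinchilla skin, but the 6 reads in white touched 150 bases, a covered share of 36.5% where other coding sequences of like length and reads in white had a median of 60.4%. A single read touched 100 bases in each coding sequence that had 1 read, so the 6 white reads overlapped in a small stretch. What that stretch is was not analysed here.

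ENSOCUP00000001590, of 264 bases, had 31 reads (7.23 RPKM) in black skin, 30 reads (7.58 RPKM) in chinchilla skin and 2 reads (0.511 RPKM) in white skin. Black and chinchilla were 0.06 apart (log2) and white was far below both, but with 2 reads in white the ratio to white was 14.2 for black (3.60 to 122) and 14.8 for chinchilla (3.76 to 128). A coding sequence of 852 bases had the same shape at a lower level, with 30 reads (2.17 RPKM) in black skin, 27 reads (2.11 RPKM) in chinchilla skin and 1 read (0.0792 RPKM) in white skin. Its ratio to white was 27.4 for black (4.55 to 1117) and 26.7 for chinchilla (4.40 to 1093). The size of these 2 differences is therefore known only to within wide limits, although the intervals cover counting error only and lie above 1.

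The members of 1236 and 1239 bases were better counted. The shorter had 154 reads (7.67 RPKM) in black skin, 133 reads (7.17 RPKM) in chinchilla skin and 14 reads (0.764 RPKM) in white skin. Its ratio to white was 10.04 for black (5.81 to 18.8) and 9.39 for chinchilla (5.40 to 17.6), with the coloured skins 0.09 apart. Its reads touched less than the full sequence in every library: 533 bases in black skin, 620 in chinchilla skin and 447 in white skin. The member of 1239 bases was covered almost fully in all 3 skins (99.3%, 99.6% and 96.9% in black, chinchilla and white). It had 872 reads (43.3 RPKM) in black skin, 632 reads (34.0 RPKM) in chinchilla skin and 173 reads (9.42 RPKM) in white skin. The ratio to white was 4.602 for black (3.90 to 5.45) and 3.61 for chinchilla (3.05 to 4.30), narrow intervals that make it the best counted of the members with a ratio above 3 to both coloured skins.

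The other 5 of the 10 members with the largest differences had 25 to 121 reads in white. A member of 1092 bases had 620 reads (34.96 RPKM) in black skin, 299 reads (18.3 RPKM) in chinchilla skin and 100 reads (6.18 RPKM) in white skin, so black was well above chinchilla, with a log2 difference of 0.90. A member of 1095 bases had 423 reads (23.8 RPKM) in black skin, 324 reads (19.7 RPKM) in chinchilla skin and 121 reads (7.45 RPKM) in white skin, with ratios to white of 3.19 (2.60 to 3.94) for black and 2.65 (2.14 to 3.29) for chinchilla. Its coloured skins were 0.26 apart. A member of 3297 bases had 377 reads (7.04 RPKM) in black skin, 465 reads (9.40 RPKM) in chinchilla skin and 104 reads (2.13 RPKM) in white skin. Here chinchilla was the higher of the coloured skins, and the ratios to white were 3.31 (2.66 to 4.15) for black and 4.42 (3.57 to 5.52) for chinchilla.

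The remaining 2 of these 10 members had the same coding length, 2019 bases, and opposite orders of the coloured skins. The first had 297 reads (9.06 RPKM) in black skin, 437 reads (14.4 RPKM) in chinchilla skin and 90 reads (3.01 RPKM) in white skin, with chinchilla 0.62 above black (log2). The second had 179 reads (5.46 RPKM) in black skin, 90 reads (2.97 RPKM) in chinchilla skin and 25 reads (0.835 RPKM) in white skin, with black 0.70 above chinchilla. In white skin the reads touched 99.2% of the first and 46.4% of the second.

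**Figure D2:**
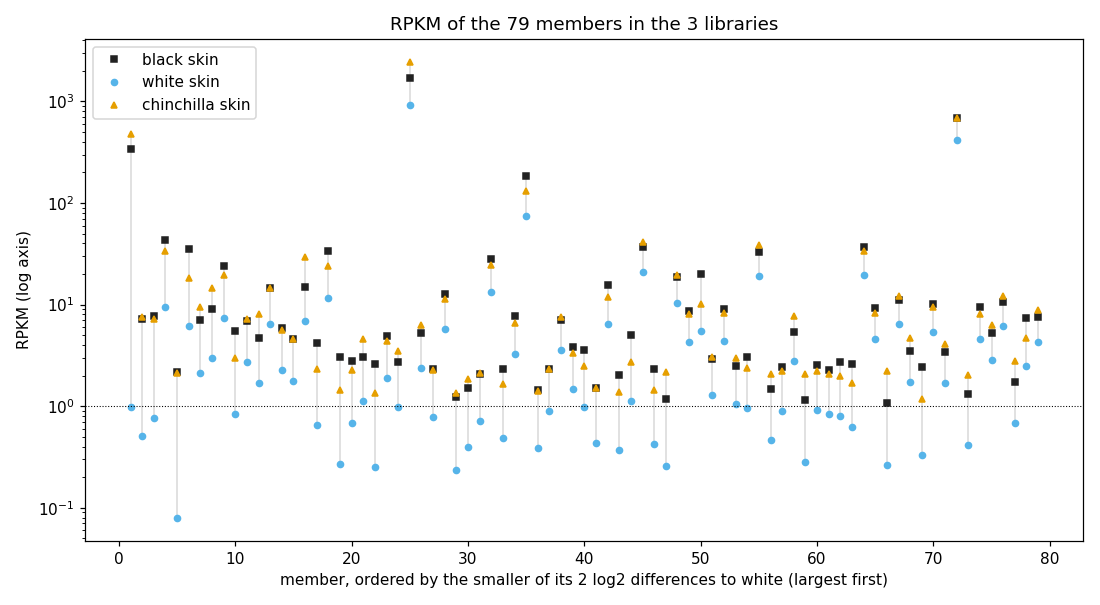
RPKM on a log axis of each of the 79 members in black (squares), white (circles) and chinchilla skin (triangles), ordered by the smaller log2 difference to white. White is the lowest point of every member by the rule, and the gap to white is widest at the first member, from 0.985 RPKM in white to 482 RPKM in chinchilla skin.

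Few members were abundant. By the mean RPKM of the coloured skins, 40 members were below 5 RPKM, 26 between 5 and 20, 9 between 20 and 100, and 4 at or above 100. The members below 5 RPKM were 50.6% of the members, against 14.7% of the 11743. This was not particular to the members. Of the 75 coding sequences high in white, 49.3% were below 5 RPKM by the same measure, though there the coloured skins are the lower ones by the rule. The 40 members below 5 RPKM had median levels of 2.48 RPKM in black skin, 2.21 in chinchilla skin and 0.698 in white skin, and a median of 7.5 reads in white. The 26 members from 5 to 20 RPKM had medians of 8.19, 8.15 and 3.90 RPKM in the same order. The 9 members from 20 to 100 RPKM had medians of 33.6, 29.2 and 11.6 RPKM, with 100 to 961 reads in white.

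Beside the 411-base sequence, 3 members had at least 100 RPKM, and their ratios to white were small but tightly counted. A member of 564 bases was the most abundant, with 15463 reads (1688 RPKM) in black skin, 20818 reads (2461 RPKM) in chinchilla skin and 7644 reads (914 RPKM) in white skin. Its ratio to white was 1.85 for black (1.80 to 1.90) and 2.69 for chinchilla (2.62 to 2.76), and chinchilla was 0.54 above black (log2). The longest member, of 7089 bases, had 78981 reads (686 RPKM) in black skin, 72796 reads (685 RPKM) in chinchilla skin and 43808 reads (417 RPKM) in white skin.

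The 7089-base sequence had its coloured skins 0.003 apart (log2), with a ratio of black to chinchilla of 1.00 (0.992 to 1.01). White was lower by 1.65-fold against black (1.63 to 1.67) and 1.64-fold against chinchilla (1.62 to 1.66), just inside the limit of 0.7. This member fell short of the limit under the 3 other scalings and without the length trend: its log2 difference of chinchilla minus white was 0.65 with median ratio, 0.67 with upper quartile and 0.66 with TMM scaling, and that of black minus white was 0.05 without the length trend. A member of 1410 bases had 4263 reads (186 RPKM) in black skin, 2780 reads (131 RPKM) in chinchilla skin and 1545 reads (73.9 RPKM) in white skin, with ratios to white of 2.52 (2.38 to 2.67) for black and 1.78 (1.67 to 1.89) for chinchilla. The fifth by abundance, of 519 bases, had 309 reads (36.7 RPKM) in black skin, 323 reads (41.5 RPKM) in chinchilla skin and 160 reads (20.8 RPKM) in white skin. Black and chinchilla did not differ beyond counting error in it, with a ratio of 0.883 (0.753 to 1.04).

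All members together made up 0.724% of the black, 0.761% of the chinchilla and 0.401% of the white library. The 7089-base sequence accounted for most of this. Without it, the other members had 38619 reads in black skin, 41417 in chinchilla skin and 15694 in white skin. Without the 3 members with most reads in black (7089, 564 and 1410 bases), 18893, 17819 and 6505 reads were left.

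Counting precision differed widely among members because many had few reads in white. No member had 0 reads in white, but 11 had 1 to 3 reads and 28 had under 10, which is 35.4% of members against 1% of the 11743. The members were chosen by a low white level, so this contrast follows in part from the rule. In these 28 the upper limit of the interval of black to white was a median of 10.98 times the lower limit. In the 30 members with 10 to 99 white reads it was 2.35 times, and in the 21 with at least 100 it was 1.40 times. The median ratio of black to white was 4.11, 2.60 and 2.11 in the same order, so the larger ratios stood mostly with the fewest reads. By the rule, a low coding sequence needs a larger ratio than an abundant one, since 1 is added to each RPKM. Whether the order says anything else was not tested.

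The exact intervals of both ratios to white lay above 1 for 67 members, and both lay above 2 for 11. Over the 11743 coding sequences, both lay above 1 for 11% and both above 2 for 0.29%. The ratio was part of the rule, so these counts grade the members by their counting error and support nothing further. For 12 members at least 1 interval reached down to 1, and these had at most 8 reads in white. The shortest member, of 162 bases, had 6 reads (2.28 RPKM) in black skin, 5 reads (2.06 RPKM) in chinchilla skin and 2 reads (0.833 RPKM) in white skin. Its ratio to white was 2.74 for black (0.490 to 27.7) and 2.47 for chinchilla (0.405 to 26.0), so a difference was not detectable at this depth.

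**Figure D3:**
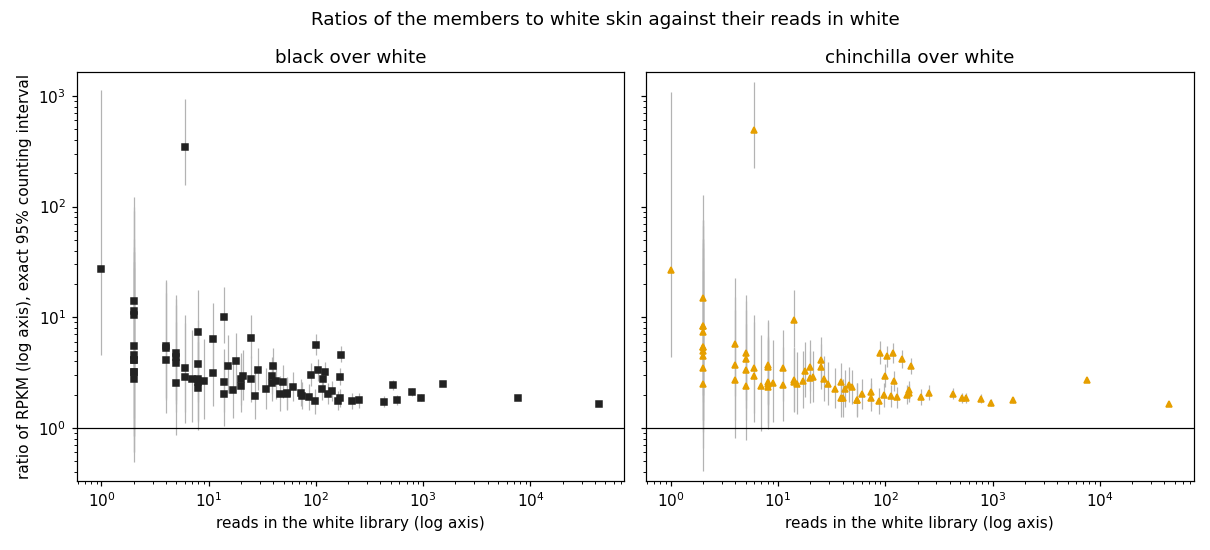
RPKM ratio to white skin of each member for black (left) and chinchilla (right), with exact 95% counting intervals as bars, against the number of reads in white. Both axes are logarithmic. The bars are long below 10 white reads and shrink to less than the symbol for the members with most reads, of which the 3 with most white reads have ratios between 1.64 and 2.69.

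Within the limit of 1, black and chinchilla were spread on both sides of each other. Black was the higher in 44 members and chinchilla in 35, where black was the higher in 47.2% of the 11743. The median difference of black minus chinchilla was 0.03 (log2) over the members and -0.04 over the 11743. They lay less than 0.25 apart in 42 members (53.2%, against 35.1% of the 11743) and less than 0.5 apart in 62 (78.5%, against 63.5%), where the rule itself left out distances of 1 or more. The counting interval of their ratio held 1 in 56 of the 79 members, against 28.8% of the 11743. It lay above 1 in 13 members and below 1 in 10. Of the 21 members with at least 100 white reads, 6 had an interval that held 1, and of the 28 with under 10 white reads, 26 did, so an interval that held 1 was most frequent where reads were few. In 44 members both intervals to white lay above 1 and that of black to chinchilla held 1. This count follows in part from the rule, and the share of the 11743 that meet both conditions was not counted.

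The members at the ends of this range were ENSOCUP00000023191, of 489 bases, and ENSOCUP00000004782, of 1374 bases. ENSOCUP00000023191 had 160 reads (20.1 RPKM) in black skin, 75 reads (10.2 RPKM) in chinchilla skin and 40 reads (5.52 RPKM) in white skin, and black was 0.91 above chinchilla (log2). ENSOCUP00000004782 had 334 reads (14.97 RPKM) in black skin, 602 reads (29.2 RPKM) in chinchilla skin and 142 reads (6.97 RPKM) in white skin, and chinchilla was 0.92 above black. In both, the middle skin stood about as far from the higher one as from white. The ratio of black to chinchilla was 1.97 (1.49 to 2.63) in the former and 0.512 (0.447 to 0.587) in the latter, so these coloured skins were alike only in the sense of the rule.

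Values on either side of the limits to white lay close together. The 3 members nearest to the limit for black minus white had differences of 0.7001, 0.703 and 0.705, and the 3 coding sequences nearest outside it had 0.692, 0.681 and 0.678. For chinchilla minus white the values were 0.7003, 0.711 and 0.715 inside and 0.695, 0.682 and 0.677 outside. For the distance between black and chinchilla they were 0.920, 0.914 and 0.901 inside and 1.09, 1.26 and 1.33 outside. The members with least RPKM in black had 1.09, 1.15 and 1.17, and 3 coding sequences that met all other conditions fell below the floor there with 0.993, 0.917 and 0.876 RPKM. The lowest RPKM of members in chinchilla were 1.19, 1.34 and 1.36, and 0 coding sequences that met all other conditions fell below the floor there. Dropping 1 condition while keeping the others would add 233 coding sequences for black minus white, 654 for chinchilla minus white and 42 for the distance between the coloured skins.

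The 42 coding sequences left out because black and chinchilla differed by 1 or more show what the condition of likeness removed. The nearest of them, of 1029 bases, had 35 reads (2.09 RPKM) in black skin, 86 reads (5.57 RPKM) in chinchilla skin and 8 reads (0.524 RPKM) in white skin. The next, of 3876 bases, had 652 reads (10.4 RPKM) in black skin, 218 reads (3.75 RPKM) in chinchilla skin and 56 reads (0.974 RPKM) in white skin. The third, of 135 bases, had 3 reads (1.37 RPKM) in black skin, 10 reads (4.94 RPKM) in chinchilla skin and 0 reads in white skin. By their selection, all 42 were low in white, with an intermediate coloured skin.

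Coding length entered the rule only through RPKM, which is scaled to it. The median length of members was 1056 bases, from 162 to 7089, against 1317 bases over the 11743, but the 51 members with at least 10 reads in all 3 libraries had a median of 1332 bases. Below 500 bases lay 15 members (19.0%, against 10.2% of the 11743), and from 2000 bases 14 (17.7%, against 27.6%). The coding sequences high in white were shorter still, with a median of 714 bases and 3 of 75 from 2000 bases. The lengths of the 11893 from which these were drawn were not summarised. Length moved with the differences of all coding sequences. Over the 11743, the median of black minus white was -0.32 (log2) below 500 bases and 0.31 from 2000 bases, while that of chinchilla minus white was 0.02 and 0.06. When this trend was removed, 59 of the 79 members were kept and 32 other coding sequences came in, and the median length fell to 636 bases. What part the trend has in membership beyond this was not tested.

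The share of a coding sequence that reads touched was not used by the rule, although it moves with the reads. Its median over members was 96.5% in black skin, 95.3% in chinchilla skin and 75.8% in white skin, and 69 members were least covered in white. The members were chosen by a low white level, so this count follows in part from the rule. The share of other coding sequences least covered in white was not counted. Fewer reads cover less, so each member was set beside coding sequences that were no members, with length and reads within 25% in the same library. At least 5 such sequences were found for 78 members in black skin, 77 in chinchilla skin and 78 in white skin. The median difference to their median was 0.64 percentage points in black skin, 0.40 in chinchilla skin and 2.37 in white skin, and 65 of 78 members lay within 10 points in white. In white skin 52 members lay above the median of their matched sequences and 26 below. The numbers were 47 and 31 in black skin, and 45 and 32 in chinchilla skin. At like reads and length, members were thus covered about as fully in white as other coding sequences, or slightly more.

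**Figure D4:**
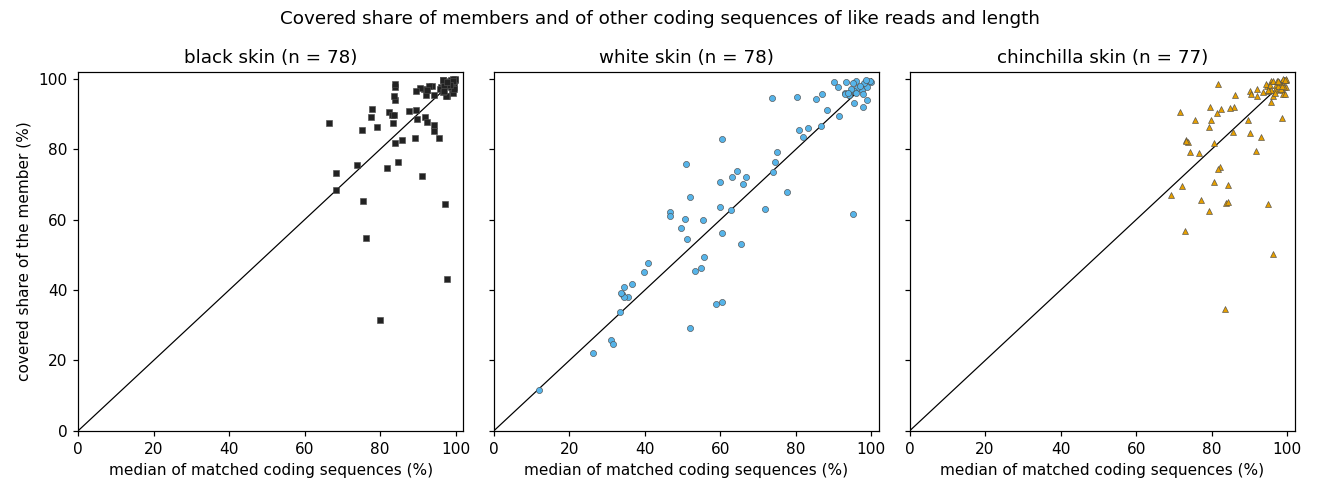
Covered share of each member (y axis) against the median of other coding sequences with length and reads within 25% in the same library (x axis), for black, white and chinchilla skin. Most points lie near the diagonal line of equality, and a few members lie far below it in all 3 panels.

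Among the exceptions, 3 members, chosen after their values were seen, were covered at least 20 points less than matched sequences in every library. The 1236-base member above had 43.1% in black skin, 50.2% in chinchilla skin and 36.2% in white skin, where matched sequences had 97.6%, 96.3% and 58.96%. A member of 354 bases had 64.4%, 64.4% and 61.6% in the same order, against 97.2%, 94.9% and 95.1%. It had 84 reads (14.6 RPKM) in black skin, 78 reads (14.7 RPKM) in chinchilla skin and 34 reads (6.48 RPKM) in white skin. A member of 498 bases had 31.5%, 34.5% and 29.1%, against 79.97%, 83.6% and 52.0%, with 14, 21 and 5 reads. Reads in these 3 fell on part of the coding sequence in all skins, while their RPKM was scaled to the whole length.

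A pair of members had the same length of 795 bases and nearly the same reads, 119 and 122 in black, 98 and 97 in chinchilla, and 54 and 54 in white skin. Only uniquely assigned reads were counted. Whether the pair are copies of a gene, and whether these 2 members are separate observations, was not tested.

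The membership and the size of single differences both depended on the settings. For the 852-base member with 1 white read, black minus white was 1.55, but 3.66 with a pseudocount of 0.1 and 0.50 with 5. Of the 79, 66 stayed with TMM scaling, 65 with median ratio scaling and 62 with upper quartile scaling, and 52 were kept under all 3 scalings and without the length trend. With a pseudocount of 0.1 in place of 1 the rule found 203 coding sequences, 78 of them members, and with 5 it found 14, all members. Under every alternative run, 5 members were kept, those of 354, 1095, 1236, 1239 and 3297 bases, of which 2 (354 and 1236 bases) were among the partly covered ones. The 411-base sequence with the largest difference was not among them, since with 6 reads in white and its coloured skins 0.51 apart it missed the minimum of 10 reads in all 3 libraries and the limit of 0.5.

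**Figure D5:**
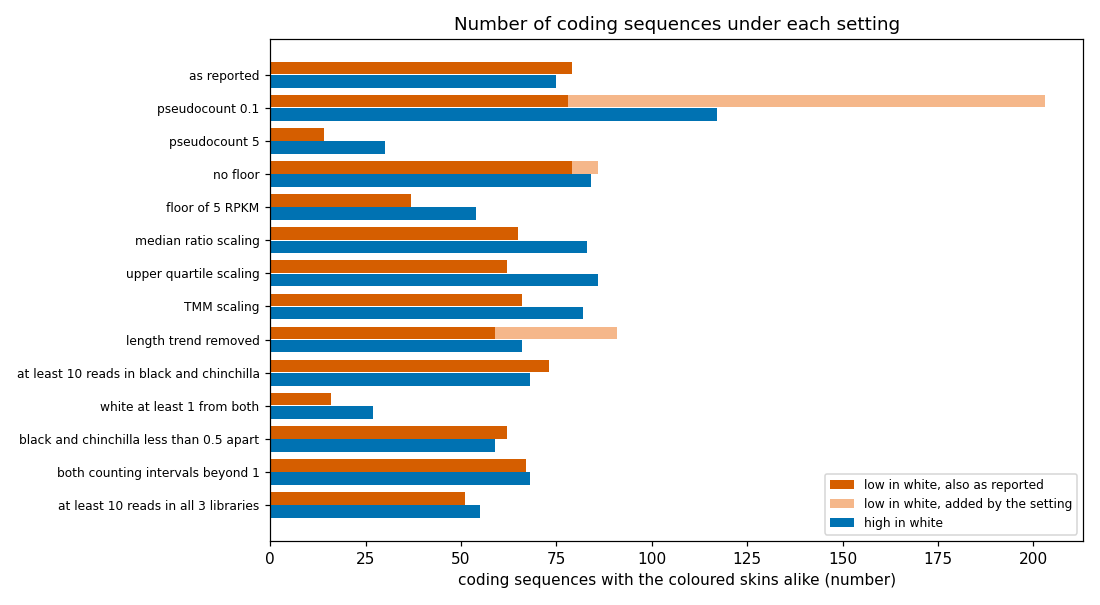
Number of coding sequences (x axis) low in white with the coloured skins alike under each setting (orange, pale where the sequence was not among the 79 reported), beside the number high in white (blue). The orange bar runs from 14 with a pseudocount of 5 to 203 with 0.1, and it is longer than the blue bar in some settings and shorter in others.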

How the data were processed

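Per the labels' protocols, total RNA of back skin was extracted with TRIzol, enriched for mRNA on oligo(dT) beads, fragmented and made into Illumina libraries. Per the file headers, the deposited lists give, by Ensembl rabbit protein identifier, the count of uniquely assigned reads, the length, the percent of it covered and the RPKM value. The deposited RPKM were recomputed from the deposited counts (largest relative difference 1.6e-14), so they are scaled to reads assigned to coding sequences. All lengths are multiples of 3 (coding lengths). Not given in the sources used here are the aligner, counter, strand setting, build and annotation.

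The 3 lists were joined by identifier, with a missing entry as 0. None of 38822 RefSeq entries holds an Ensembl identifier, so symbols, coordinates, sequences and the gene and marker lists were not used here. The members and lists were chosen with earlier results of these data known. Identifiers were printed for the 2 members with the largest smaller difference to white and for the ones with the most unequal coloured skins. Described in full were the 10 members with the largest smaller difference, the 5 most abundant, the longest and the shortest, while of those nearest to each limit the value at the limit was given. Ratios have exact (Clopper-Pearson) 95% intervals, for counting error only, with 1 library per coat colour. Reads are not independent molecules, so the intervals may be too narrow even for counting error. Scripts were tested on simulated data. Alternatives were other pseudocounts, floors, scalings (TMM among them), limits and read minimums, counting intervals, and removal of a lowess trend (fraction 0.3) on log2 length. The software was SciPy 1.17.1 and statsmodels 0.14.6, with pandas 2.3.3 and NumPy 2.4.6 under Python 3.11.15, and matplotlib 3.10.9 for figures.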

Additional observations from a re-analysis of the deposited data

How the results depend on the processing

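With a pseudocount of 0.1, 203 coding sequences were low and 117 high in white, and the low ones had a median length of 1251 bases and median log2 differences to white of 1.09 (black) and 1.12 (chinchilla). With a pseudocount of 5 the counts were 14 and 30, with medians of 1.14 and 1.07. A floor of 5 RPKM left 37 low ones. With white at least 1 from both, 16 were low and 27 high, with medians of 1.46 and 1.63. Without the length trend the median length was 636 bases. At least 10 reads in all 3 libraries, a minimum chosen after seeing the data, left 51 low ones with a median length of 1332 bases. By construction, a higher pseudocount, floor or minimum removes low coding sequences. A limit of 1 to white likewise keeps only the coding sequences with larger differences. For the other changes the cause was not tested. The 3 scalings, no floor, 10 reads in the coloured skins, coloured skins less than 0.5 apart, and counting intervals beyond 1 moved neither count by over 1.5 times. Of 204 alternative values of the 17 members described in full, 0 changed sign. All started at 0.7 or more by the rule, and a pseudocount cannot turn a sign, so this was largely set beforehand. The smallest was 0.05 (7089 bases, black minus white, without the length trend). Beyond the counting interval moved 33 values, 16 of them with a pseudocount of 5. Few reads give a wide interval, so values within it need not be stable. Black minus white of the 852-base member, 1.55, counted as unmoved at 3.66 and 0.50 with pseudocounts of 0.1 and 5. No paired analysis was possible because each coat colour has 1 library, and for the same reason none could be left out.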
